A study of Mus musculus with 20 samples.

Results

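The genes described here are 10 genes of polyamine metabolism, 10 of the 18054 genes in the count table. They are the antizymes Oaz1 and Oaz2, the antizyme inhibitors Azin1 and Azin2, the biosynthetic enzymes Odc1, Amd1, Srm and Sms, and the catabolic enzymes Sat1 and Smox. They were chosen by what they encode, as the rows of the count table for polyamine synthesis and antizyme genes, and all 10 had a row. Ribosome footprints, the stretches of mRNA that ribosomes shield from nuclease, were sequenced from mouse hippocampus beside input RNA of the same lysate. Every animal gave 1 footprint library and 1 input library. The groups were 3 Qtrt1-/- females and 3 wild-type females, aged 6 months and 21 or 22 days, and 2 Qtrt1-/- males and 2 wild-type males, aged 6 months and 18 days or 5 months and 16 days. Qtrt1 encodes the active subunit of the transglycosylase that inserts queuosine into the tRNAs that carry tyrosine, histidine, aspartate and asparagine. The labels give no strain, allele or driver line for the knockout, and nothing beyond Qtrt1 is named as altered in either genotype.

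Polyamines are small cations that bind RNA and are needed for translation, growth and, in the brain, the block of several ion channels. Ornithine decarboxylase, encoded by Odc1, makes putrescine, and spermidine synthase (Srm) and spermine synthase (Sms) add aminopropyl groups supplied by S-adenosylmethionine decarboxylase (Amd1). Antizymes bind ornithine decarboxylase, carry it to the proteasome and slow polyamine uptake, and antizyme inhibitors are inactive relatives of the enzyme that hold antizymes back. Full-length antizyme is made only when ribosomes skip a base at the stop codon of the first reading frame, and high polyamine levels favour that shift.

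The frameshift sites of both antizymes are shown because these genes alone among the 10 need a change of reading frame, and because Oaz2 carried the clearest difference below. The capitals mark the stop codon of the first frame, whose T is skipped. The stretches come from the GENCODE M21 transcripts on GRCm38 and lie in coding exons on the plus strand, Oaz1 at chr10:80828265-80828325 and Oaz2 at chr9:65686242-65686302.
Oaz1: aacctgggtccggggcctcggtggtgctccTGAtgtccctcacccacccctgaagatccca
Oaz2: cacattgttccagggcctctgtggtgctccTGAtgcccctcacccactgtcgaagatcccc
The annotated coding sequence of Oaz1 held 68 codons before the shift and 159 after it, and that of Oaz2 held 32 before and 157 after. Of the 61 bases shown, 49 were the same in both genes, and an unbroken run of 15 identical bases spans the stop codon, 10 of them before it. The build behind the deposited counts (not given in the sources used here) may differ, and these coordinates belong to the annotation and not to the counts.

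Footprint libraries held between 5357812 and 15517982 counts and input libraries between 9000662 and 13637370. Qtrt1 itself was low in the libraries labelled as knockouts, with 5, 1 and 4 footprint counts in Qtrt1-/- females, against 40, 28 and 30 in wild-type females, and with 10 and 3 in Qtrt1-/- males, against 94 and 46 in wild-type males. All 11 hippocampal neuron markers were detected in every footprint library. Markers of neighbouring tissue and other cells varied between females. The 10 choroid plexus markers summed to between 3605 and 13512 CPM (footprint counts scaled to library size) in Qtrt1-/- females, against 789 to 8239 CPM in wild-type females. The 8 striatum markers summed to between 162 and 416 CPM in Qtrt1-/- females, against 302 to 769 CPM in wild-type females. The 8 meningeal fibroblast markers summed to between 314 and 411 CPM in Qtrt1-/- females, against 157 to 303 CPM in wild-type females, and the 5 erythrocyte markers to between 73.4 and 133 CPM in Qtrt1-/- females, against 36.8 to 58.6 CPM in wild-type females, both without overlap. In female footprints edgeR called higher in Qtrt1-/- animals 4 of the 8 meningeal markers, 2 of 6 astrocyte markers and 1 each of the choroid plexus, erythrocyte, ependyma and hippocampal neuron markers, and called lower 2 of the 8 striatum markers. Of the neuron markers 10 of 11 had a log2 difference above 0 (median 0.52), and their sums overlapped. Males of both genotypes lay between 12042 and 16615 CPM for choroid plexus and between 153 and 196 CPM for striatum. The labels name separate animals, so p-values for footprints and for input RNA measure the spread between animals. For the ratio of footprints to input, the main fit took the 2 libraries of an animal as separate. Its p-values therefore do not measure the spread of the ratio between animals.

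Oaz2, the second antizyme, had fewer footprints in the hippocampus of Qtrt1-/- females than of wild-type females, with nearly the same input RNA. In whole tissue, fewer cells of a type and less RNA or fewer ribosomes per cell cannot be told apart. Its footprint level was 8.01, 7.35 and 9.23 CPM in the 3 Qtrt1-/- females, against 15.1, 14.2 and 14.2 CPM in the 3 wild-type females. Its footprint level was 11.8 and 9.74 CPM in the 2 Qtrt1-/- males, against 15.0 and 14.2 CPM in the 2 wild-type males. All 5 Qtrt1-/- animals thus lay below all 5 wild-type animals, and the wild-type animals of both sexes lay close together. Oaz2 was the one gene of the 10 with this separation in footprints, which 0.997% of the 13143 genes tested showed in that direction. These levels rest on 66, 57, 82, 92 and 59 footprint counts in Qtrt1-/- animals, against 98, 81, 100, 244 and 77 in wild-type animals, females first.

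The log2 difference of Oaz2 footprints, Qtrt1-/- minus wild type, was -0.82 in females and passed (SE 0.16, adjusted p = 0.0122, edgeR quasi-likelihood test with Benjamini-Hochberg adjustment over all genes). Means were 8.20 ± 0.952 CPM in Qtrt1-/- females and 14.5 ± 0.508 CPM in wild-type females (SD, n = 3 each). In the same comparison 7.06% of the genes tested were called and 4.25% were called lower, and since the genes were chosen with earlier results of these data known, nothing is read from the count of 1 in 8. In males the log2 difference was -0.44 ± 0.19 (SE) and did not pass (adjusted p = 0.963, edgeR). The male comparison called 0 of 13143 genes with edgeR, and Qtrt1 itself was not called. A missing call in males therefore does not show an unchanged level. Over both sexes the log2 difference of Oaz2 footprints was -0.63 ± 0.12 (adjusted p = 0.0567, edgeR), short of the threshold of 0.05, which it passed with DESeq2 (adjusted p = 0.0163). There DESeq2 called 537 of 8815 genes, against 1 of 13143 with edgeR. The difference between the sexes, female minus male, was -0.38 ± 0.24 and did not pass either (adjusted p = 0.719, edgeR).

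Input RNA of Oaz2 was 46.2, 46.5 and 47.3 CPM in Qtrt1-/- females, against 46.0, 43.3 and 45.0 CPM in wild-type females. It was 47.6 and 51.0 CPM in Qtrt1-/- males, against 47.0 and 50.9 CPM in wild-type males. The values of females did not overlap, the Qtrt1-/- ones being slightly higher, as 11.8% of genes were, and those of males did. The log2 difference in input was 0.06 ± 0.07 (SE) in females, with an adjusted p of 0.678 (edgeR), and 0.01 ± 0.08 in males.

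The footprint-to-input ratio of Oaz2, footprint CPM over input CPM of the same animal, was 0.173, 0.158 and 0.195 in Qtrt1-/- females, against 0.328, 0.329 and 0.315 in wild-type females. It was 0.248 and 0.191 in Qtrt1-/- males, against 0.319 and 0.278 in wild-type males. Again the 5 Qtrt1-/- values lay below the 5 wild-type values, a separation seen for 0.895% of genes. In Qtrt1-/- females the ratio fell by 0.86 on the log2 scale (SE 0.15, adjusted p = 0.0334, edgeR). In this fit, which took the 2 libraries of an animal as separate, Oaz2 was 1 of 6 genes called among 14146, all of them lower, or 0.0424%. In males 0 of 14146 genes were called for the ratio with edgeR, and Qtrt1 itself was called for it in neither sex. The log2 difference of the Oaz2 ratio in males was -0.43 ± 0.17 and did not pass. Over both sexes it was -0.65 ± 0.11 and did not pass with edgeR (adjusted p = 0.0961), passed with DESeq2 (adjusted p = 0.00466), and with the 2 libraries of an animal paired in the model it was -0.65 ± 0.13 and passed (adjusted p = 0.0207, edgeR). That pairing, which rests on the labels, raised the number of genes called for the ratio to 394 in females and 114 over both sexes.

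**Figure D1:**
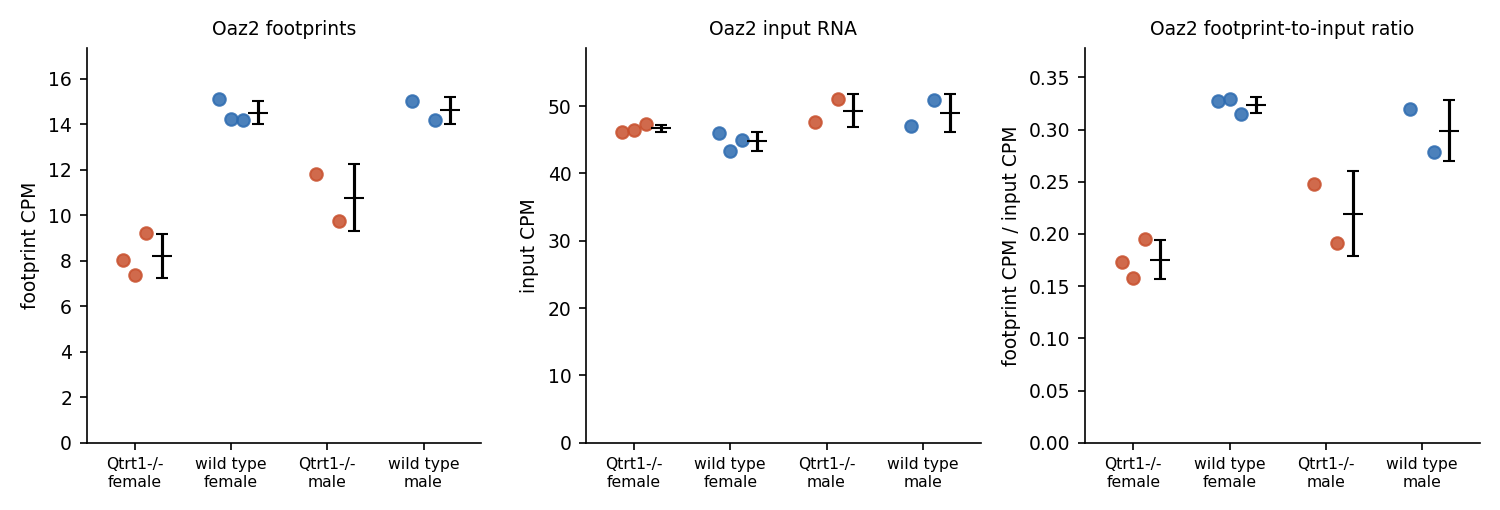
Oaz2 footprint CPM, input CPM and footprint-to-input ratio in each animal, as points, with the mean and SD of each group as a black bar (n = 3 per female group, n = 2 per male group). All 5 Qtrt1-/- animals lie below all 5 wild-type animals in footprints (7.35 to 11.8 against 14.2 to 15.1 CPM) and in the ratio, and the input panel shows no such separation.

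The Oaz2 call in females depended on single animals. For footprints its adjusted p (edgeR) was 0.0678 without Qtrt1-/- female 1, 0.0568 without Qtrt1-/- female 2 and 0.0583 without wild-type female 1, and for the ratio it was between 0.0922 and 0.468 without any of the wild-type females or without Qtrt1-/- female 1 or 2. Marker levels moved with part of these groups: wild-type females 1 and 2 were the lowest in choroid plexus markers, with 789 and 965 CPM. Without both of them, which left 1 wild-type female, the log2 difference of Oaz2 footprints was -0.77 ± 0.24. Without the 3 females highest in striatum markers, which also left 1 wild-type female, it was -0.72 ± 0.27. With 1 animal in a group, the calls of these fits are not read. The summed meningeal fibroblast and erythrocyte markers were higher in all 3 Qtrt1-/- females than in all 3 wild-type females. The part of these marker levels in the Oaz2 difference was not tested.

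**Figure D2:**
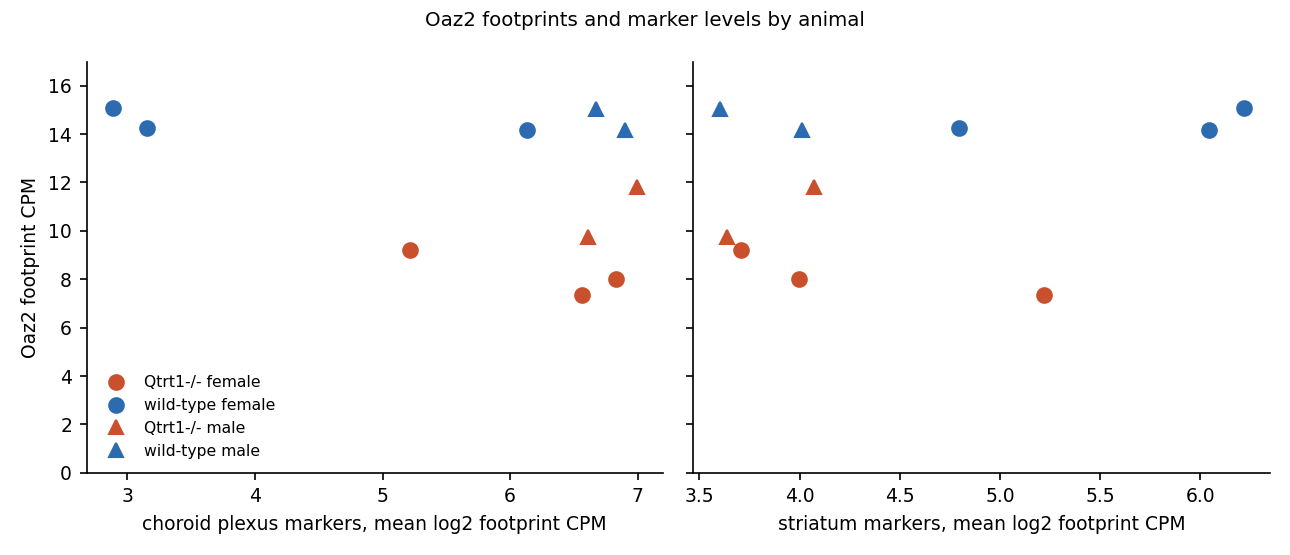
Oaz2 footprint CPM against the mean log2 footprint CPM of 10 choroid plexus markers (left) and 8 striatum markers (right), 1 point per animal, circles for females and triangles for males. The 5 Qtrt1-/- animals lie between 7.35 and 11.8 CPM and the 5 wild-type animals between 14.2 and 15.1 CPM. In wild type only the males have both high choroid plexus and low striatum markers, and no wild-type female has both.

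Oaz1, the first and most widely expressed antizyme, had ample input RNA and almost no counted footprints. Footprint counts were 9, 4 and 13 in Qtrt1-/- females, against 14, 10 and 3 in wild-type females, and 23 and 7 in Qtrt1-/- males, against 58 and 24 in wild-type males. Input counts of Oaz1 were between 1232 and 1619 in every animal. As CPM, footprints were 1.09, 0.516 and 1.46 in Qtrt1-/- females, against 2.16, 1.76 and 0.426 in wild-type females, and 2.95 and 1.16 in Qtrt1-/- males, against 3.57 and 4.42 in wild-type males. Female values overlapped, and male values did not, as was so in that direction for 13.7% of genes. The log2 difference in Oaz1 footprints was -0.44 ± 0.57 (SE) in females and -0.88 ± 0.55 in males, and neither passed (adjusted p = 0.666 in females, edgeR). Input RNA averaged 109 ± 10.1 CPM in Qtrt1-/- females and 104 ± 3.38 CPM in wild-type females (SD, n = 3 each). In males it averaged 135 ± 6.91 CPM in Qtrt1-/- males and 137 ± 7.22 CPM in wild-type males (SD, n = 2 each).

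The antizyme inhibitors had the most footprint counts of the regulators and showed no called genotype difference. Azin1 footprints were 91.9, 91.7 and 86.7 CPM in Qtrt1-/- females, against 75.3, 71.7 and 91.5 CPM in wild-type females. They were 63.8 and 62.1 CPM in Qtrt1-/- males, against 80.9 and 62.2 CPM in wild-type males. Female values overlapped through wild-type female 3, and the log2 difference of Azin1 footprints was 0.18 ± 0.12 (SE) in females and -0.20 ± 0.15 in males. Azin2, the inhibitor known from brain and testis, had 25.4, 24.4 and 24.4 footprint CPM in Qtrt1-/- females, against 34.2, 31.98 and 29.6 CPM in wild-type females. It had 34.8 and 28.9 CPM in Qtrt1-/- males, against 28.7 and 31.9 CPM in wild-type males. Female values of Azin2 did not overlap, as 17.8% of genes did not in that direction, and male values did. Its log2 difference was -0.37 ± 0.12 in females and 0.08 ± 0.15 in males, and the female one missed the threshold (adjusted p = 0.0848, edgeR). Fitted on the females alone it passed (adjusted p = 0.0425, edgeR). The female minus male difference of Azin2 footprints was -0.45 ± 0.20 and did not pass (adjusted p = 0.563, edgeR).

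Odc1, which opens the pathway, had few footprints for its input, as Oaz1 had. Its footprint counts were 38, 24 and 28 in Qtrt1-/- females, against 29, 25 and 41 in wild-type females, and 32 and 27 in Qtrt1-/- males, against 75 and 17 in wild-type males. Its footprint level averaged 3.62 ± 0.860 CPM in Qtrt1-/- females and 4.89 ± 0.801 CPM in wild-type females (SD, n = 3 each), and the values overlapped. The footprint-to-input ratio was 0.135, 0.0959 and 0.113 in Qtrt1-/- females, against 0.154, 0.166 and 0.178 in wild-type females, without overlap, as 15.2% of genes were in that direction. The log2 difference of the Odc1 ratio was -0.52 ± 0.26 (SE) and did not pass (adjusted p = 0.409, edgeR). Input RNA of Odc1 was 47.3 and 38.4 CPM in Qtrt1-/- males, against 32.8 and 37.0 CPM in wild-type males, not overlapping, as 19.3% of genes were in that direction, with a log2 difference of 0.30 ± 0.14 that did not pass (adjusted p = 0.572, edgeR).

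Srm, which makes spermidine, was the one gene of the 10 with more footprint than input CPM in every animal. Its footprints were 45.1, 41.0 and 49.4 CPM in Qtrt1-/- females, against 55.1, 44.3 and 53.8 CPM in wild-type females. In males they were 46.6 and 52.1 CPM in Qtrt1-/- animals, against 46.5 and 53.4 CPM in wild-type animals. Values overlapped in both sexes, and the log2 difference was -0.18 ± 0.12 (SE) in females and -0.01 ± 0.15 in males. Sms, which makes spermine, had between 2 and 5 footprint counts in Qtrt1-/- animals and between 1 and 7 in wild-type animals, beside 46 to 82 and 52 to 82 input counts. Amd1 had 0 footprint counts in all 10 animals, beside 27 to 42 input counts in Qtrt1-/- animals and 28 to 53 in wild-type animals. A count of 0 allows 3 counts per library, so Amd1 footprint CPM was at least 4.403-fold lower than input CPM in the least informative animal, wild-type female 2, and at least 22.3-fold lower in the most deeply sequenced, wild-type male 1. Sms and Amd1 did not pass the filter on low footprint counts, so 8 of the 10 genes were tested in footprints and all 10 in input RNA.

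Neither catabolic enzyme was called between genotypes. Sat1, which acetylates spermidine and spermine, had 10.4, 11.0 and 12.8 footprint CPM in Qtrt1-/- females, against 8.78, 10.9 and 10.6 CPM in wild-type females. It had 15.8 and 17.5 CPM in Qtrt1-/- males, against 14.3 and 17.3 CPM in wild-type males. The groups overlapped in both sexes, and the log2 difference was 0.18 ± 0.17 (SE) in females and 0.09 ± 0.19 in males. Smox, which oxidizes spermine back to spermidine, had 16.5, 13.5 and 16.99 footprint CPM in Qtrt1-/- females, against 25.4, 22.5 and 16.7 CPM in wild-type females. It had 28.5 and 21.0 CPM in Qtrt1-/- males, against 28.5 and 38.3 CPM in wild-type males. Smox footprint values overlapped in females through wild-type female 3, and in males the higher Qtrt1-/- value lay just under the lower wild-type one, a separation that 13.7% of genes showed. The footprint-to-input ratio of Smox was 0.304, 0.231 and 0.289 in Qtrt1-/- females, against 0.430, 0.377 and 0.318 in wild-type females. These ratios did not overlap, as 15.2% of genes did not in that direction, and the difference was not called. The log2 difference of Smox footprints was -0.45 ± 0.19 in females and -0.41 ± 0.22 in males, and over both sexes it was -0.43 ± 0.15 (adjusted p = 0.134, edgeR). Its input RNA averaged 57.3 ± 2.56 CPM in Qtrt1-/- females and 57.1 ± 3.90 CPM in wild-type females (SD, n = 3 each).

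Over all 10 genes, Oaz2 was thus the single one called between genotypes by edgeR, in female footprints and in the female ratio. In that ratio 4 of the 8 genes (Oaz2, Azin2, Odc1 and Smox) lay lower in every Qtrt1-/- female than in every wild-type female. Of all genes, 15.2% did so, and nothing is read from the count of 4. The median log2 difference of the 8 genes tested in footprints was -0.40 in females and -0.10 in males, beside medians over all 13143 genes of 0.0030 in females and -0.0024 in males. In input RNA the median of the 10 genes was 0.02 in females and -0.02 in males. There 0 were called in either sex by edgeR or DESeq2, where edgeR called 3.48% of all genes in females. None had an unadjusted p under 0.05, beside 2851 of 14164 genes in females and 1246 in males. Over both sexes edgeR called 0 of the 8 tested in footprints and 0 of the 10 in input RNA, beside 0.00761% and 0.734% of all genes. At an unadjusted p under 0.05 there were 2 in footprints (Oaz2 and Smox), as for 2576 of all 13143 genes. In input RNA there was 1 (Odc1), as for 2497 of 14164 genes. DESeq2 called Oaz2 in footprints, where it called 537 of 8815 genes. In input RNA it called none of the 10, beside 429 of 9161 genes. In males no gene of the 10 was called in footprints or the ratio by either tool. There edgeR called 0 of all 13143 genes in footprints and 0 of 14146 in the ratio. DESeq2 called 1 of 17054 in male footprints, and no alternative fit of the male ratio called more than 1 gene. In male footprints Oaz2 alone had an unadjusted p under 0.05 with edgeR, as 562 of the 13143 genes had.

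**Figure D3:**
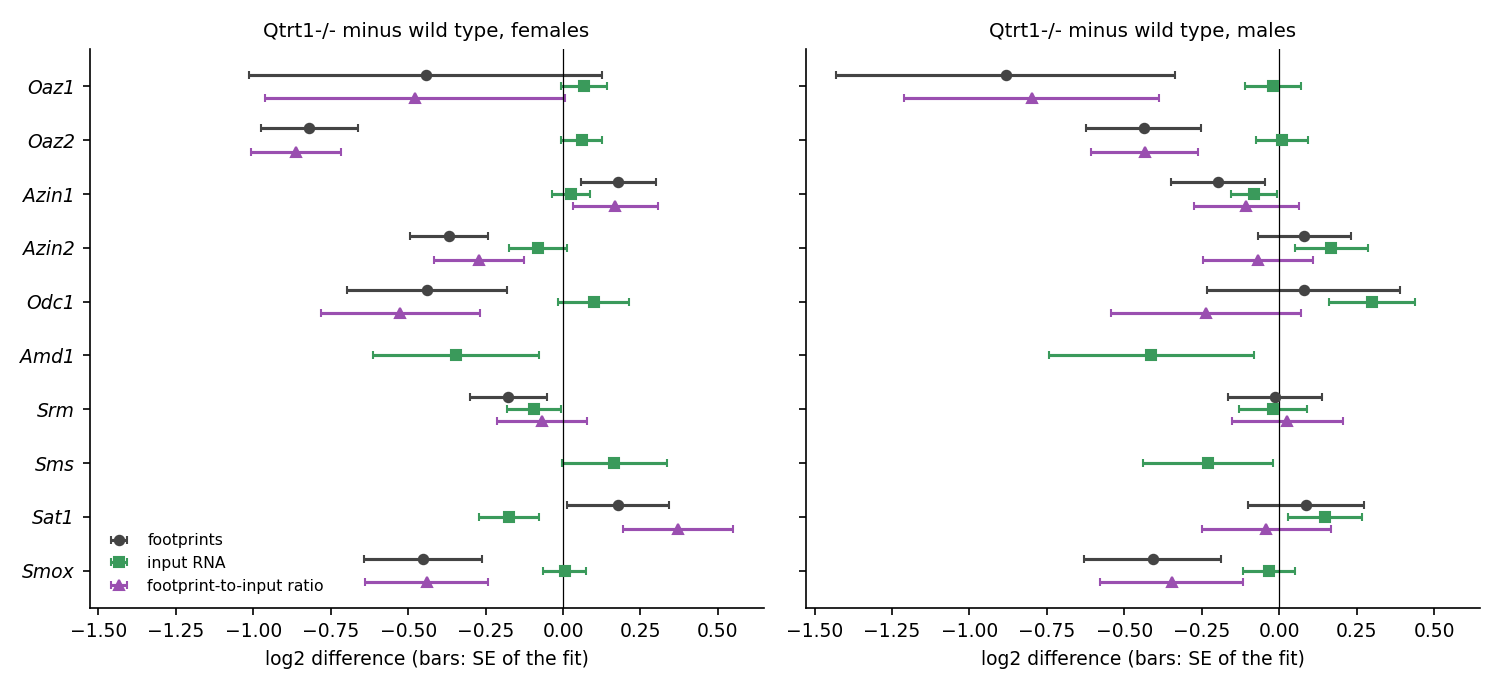
Log2 difference, Qtrt1-/- minus wild type, of each gene in females (left) and males (right), for footprints (circles), input RNA (squares) and their ratio (triangles), with bars of 1 SE from the fit. Oaz2 lies at -0.82 and -0.86 in female footprints and ratio with input at 0.06, and Amd1 and Sms are drawn for input only.

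The genes differed far more from each other than between genotypes. Per length, as footprint CPM per kb of coding sequence over input CPM per kb of transcript in wild-type animals, Srm stood highest at 3.25 ± 0.344 (SD, n = 5), followed by Azin1 at 1.55 ± 0.246 and Azin2 at 1.30 ± 0.188. Sat1 at 1.11 ± 0.330 and Oaz2 at 1.02 ± 0.0672 came next, and from Azin1 to Oaz2 the animals' range of each gene overlapped that of the next. Smox followed at 0.556 ± 0.106, Odc1 at 0.231 ± 0.0579 and Sms, on 1 to 7 counts, at 0.145 ± 0.0472. Of these, Odc1 and Sms overlapped in range. Oaz1 stood at 0.0309 ± 0.0167, and the ratio of its mean levels lay at percentile 0.0388 of 12898 genes, while its input per length lay at percentile 96.6. In input RNA per length the order was different, with Oaz1 highest at 112 CPM per kb, then Azin1 at 36.9, Smox at 27.98, Oaz2 at 25.2 and Sat1 at 22.0.

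The 4 genes with the lowest ratios also had the largest shares of sequence in common with other genes. Of the 28-base windows of the Oaz1 coding sequence, 91.6% were found in a transcript of another gene, the processed pseudogene Oaz1-ps. The share was 84.4% for Odc1, with 21 other genes, and 100% for both Amd1 (97.1% with Amd-ps3) and Sms (Sms-ps). It was 66.3% for Oaz2 (56.7% with Oaz2-ps), 45.7% for Sat1 and 21.4% for Srm, and 0 for Azin1, Azin2 and Smox. How reads that match several genes were treated was not given in the sources used here, and the levels of these 7 genes are uncertain. The ratio per length was also taken over all genes with a mean input of at least 1 CPM in wild type. Its median was 1.84 for 9242 genes with no shared window, 0.966 for 553 genes with over 50 to 90% shared and 0.357 for 285 genes with over 90% shared. Among these genes, 5.96% of those with over 90% shared had 0 footprints over all 10 animals of both genotypes, against 0.0325% of those with no shared window. The part of shared sequence in the low footprint counts was not tested.

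**Figure D4:**
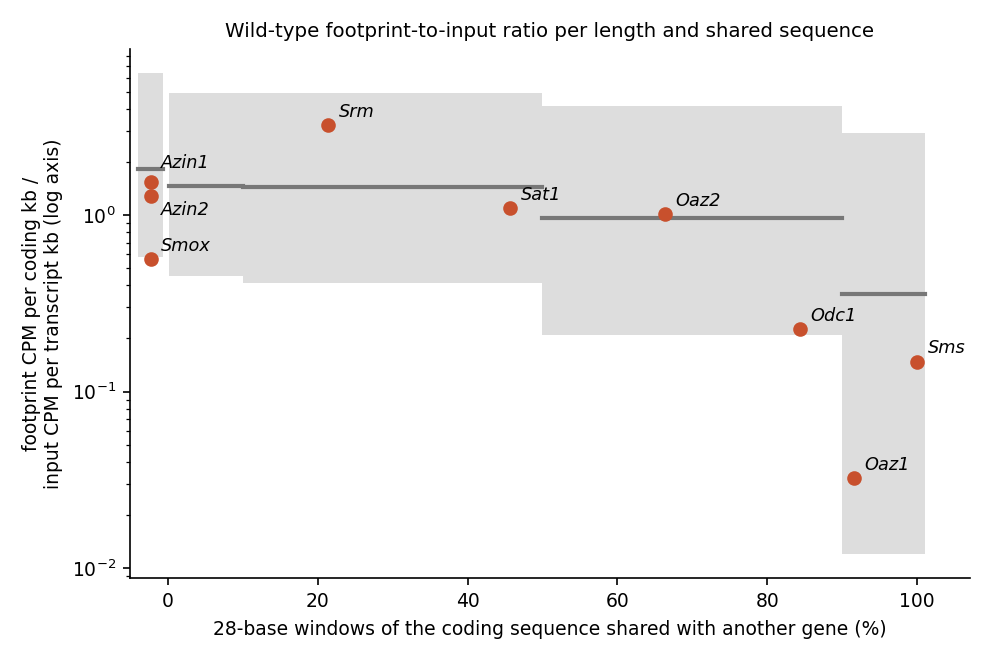
Wild-type footprint-to-input ratio per length (log axis) against the percentage of 28-base coding windows shared with another gene, for 9 of the 10 genes. Grey lines and bands give the median and the 10th to 90th percentile in 5 classes of shared windows, over all genes with a mean wild-type input of at least 1 CPM. Oaz1, Odc1 and Sms lie low and to the right, and Amd1, at 100% and a ratio of 0, cannot be drawn on a log axis.

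In wild type, 3 genes differed between females and males in at least 1 assay. Sex and age cannot be told apart here, since the females were older than the males, and choroid plexus markers summed to between 789 and 8239 footprint CPM in wild-type females, against 14214 to 15018 CPM in wild-type males. Input RNA of Oaz1 was 102, 103 and 108 CPM in wild-type females, against 142 and 132 CPM in wild-type males, a log2 difference of -0.39 ± 0.08 (SE, adjusted p = 0.00911, edgeR). Input RNA of Smox was 59.1, 59.6 and 52.6 CPM in wild-type females, against 73.6 and 72.7 CPM in wild-type males, a log2 difference of -0.36 ± 0.08 (SE, adjusted p = 0.0104, edgeR). Neither gene's values overlapped, as was so for 22.7% of genes in that direction, and 5.45% of the 14164 genes tested were called lower in wild-type females. Footprints of Sat1 were 8.78, 10.9 and 10.6 CPM in wild-type females, against 14.3 and 17.3 CPM in wild-type males, not overlapping, as 22.3% of genes were in that direction, with a log2 difference of -0.63 ± 0.18 (SE, adjusted p = 0.0290, edgeR), where 7.27% of 13143 genes were called lower. Its input RNA was 27.6, 22.7 and 27.2 CPM in wild-type females, against 25.4 and 25.1 CPM in wild-type males, overlapping.

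Qtrt1-/- animals had the same order of the sexes in these 3 readouts. Oaz1 input was 116, 114 and 97.8 CPM in Qtrt1-/- females, against 130 and 140 CPM in Qtrt1-/- males. Smox input was 54.3, 58.7 and 58.8 CPM in Qtrt1-/- females, against 72.1 and 70.9 CPM in Qtrt1-/- males, and Sat1 footprints were 10.4, 11.0 and 12.8 CPM in Qtrt1-/- females, against 15.8 and 17.5 CPM in Qtrt1-/- males. No value of the females reached the males in either genotype, a separation that among Qtrt1-/- animals 23.6% of genes showed in footprints and 20.5% in input RNA. The log2 difference of Smox footprints between wild-type females and males was -0.62 ± 0.20 (adjusted p = 0.0509, edgeR). DESeq2 called it (adjusted p = 0.0413), as it called 2071 of 10133 genes. That of Oaz1 footprints, which rest on 3 to 58 counts, was -1.46 ± 0.52 (adjusted p = 0.0712, edgeR). Sat1 footprints lost their call without wild-type female 1 (adjusted p = 0.112, edgeR) and with DESeq2 (0.0544). Other fits left 1 wild-type animal of a sex, and their calls are not read. Without wild-type females 1 and 2 the log2 differences were -0.34 for Oaz1 input and -0.57 for Sat1 footprints, and Smox input kept its direction. Without the 3 females highest in striatum markers they were -0.41 for Oaz1 input, -0.29 for Smox input and -0.52 for Sat1 footprints. Without wild-type male 1 they were -0.33 for Oaz1 input and -0.35 for Smox input. Without wild-type male 2 that of Sat1 footprints was -0.51.

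**Figure D5:**
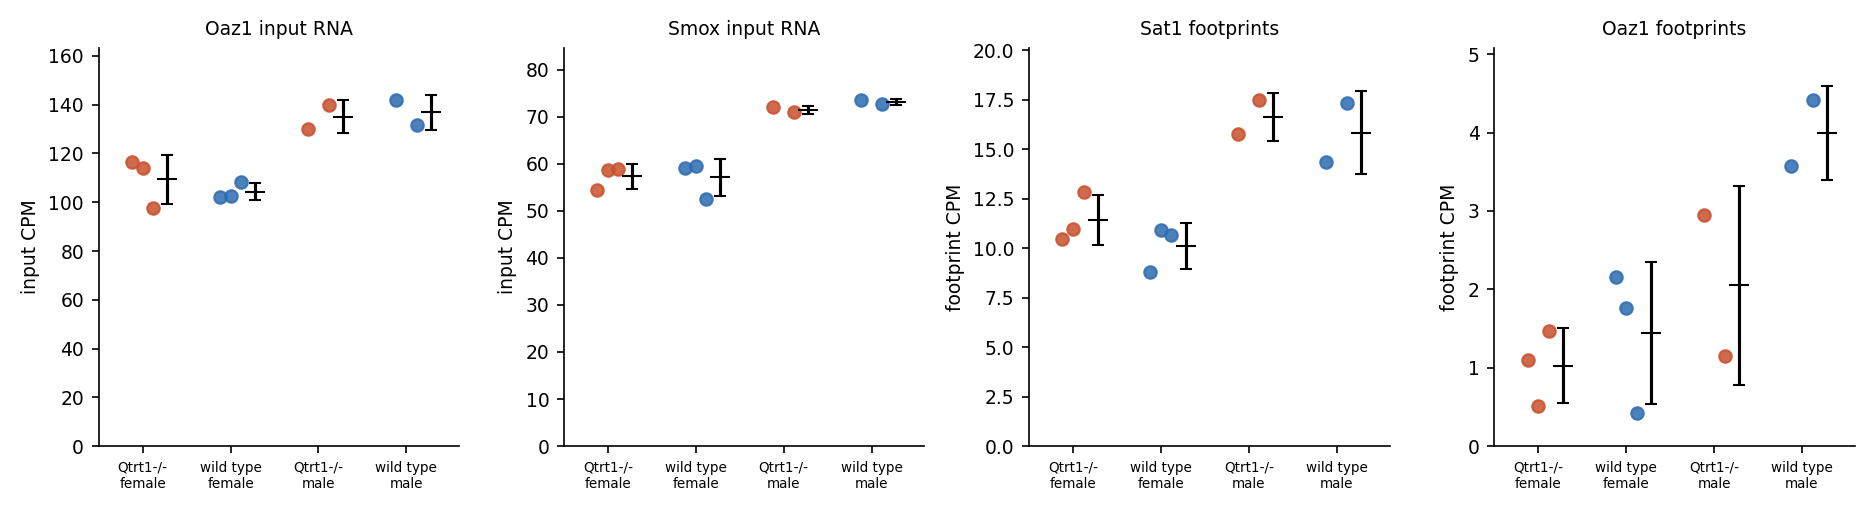
Oaz1 input, Smox input, Sat1 footprints and Oaz1 footprints in CPM for each animal, as points, with the mean and SD of each group as a black bar (n = 3 per female group, n = 2 per male group). Smox input lies between 52.6 and 59.6 CPM in all 6 females and between 70.9 and 73.6 CPM in all 4 males.

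No gene of the lists around the pathway was called between genotypes. Of 18 other genes of polyamine transport and of arginine and ornithine metabolism, 14 were tested in footprints, and edgeR and DESeq2 called 0 of them in females, males or over both sexes. At an unadjusted p under 0.05 there were 3 in females (Arg2, Atp13a2 and Atp13a3) and 0 in males, beside 3367 and 562 of all 13143 genes. The 3 with the most footprints were Slc3a2, a subunit of amino acid transporters, at 529 ± 58.6 CPM, Oat, which converts ornithine, at 300 ± 25.5 CPM and Slc7a1, an arginine transporter, at 100.0 ± 15.2 CPM (SD, n = 10). Their log2 differences in female footprints were 0.05 ± 0.13 (SE) for Slc3a2, 0.16 ± 0.09 for Oat and 0.01 ± 0.12 for Slc7a1. Oaz3, the testis antizyme, and Amd2 were not analysed here.

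Of 8 genes of methionine salvage and S-adenosylmethionine supply, 7 were tested in footprints and 0 were called between genotypes by edgeR or DESeq2. At an unadjusted p under 0.05 there was 1 in females (Mri1) and 0 in males, beside 3367 and 562 of all 13143 genes. Mat2a, the catalytic subunit that makes S-adenosylmethionine, was called between wild-type females and males. Its footprints were 57.7, 46.6 and 59.7 CPM in wild-type females, against 42.0 and 26.7 CPM in wild-type males, a log2 difference of 0.64 ± 0.18 (SE, adjusted p = 0.0300, edgeR), where 9.25% of genes were called higher. It lost that call without wild-type female 1 or 3 (adjusted p 0.0927 and 0.0729, edgeR). Without wild-type male 2, which left 1 wild-type male, its log2 difference was 0.38. It was 0.75 without wild-type females 1 and 2 and 0.41 without the 3 females highest in striatum markers, each leaving 1 wild-type female. Enoph1, an enzyme of methionine salvage, had a log2 difference of -0.42 ± 0.14 in footprints between wild-type females and males that edgeR did not call (adjusted p = 0.0509). DESeq2 called it, as it called 2071 of 10133 genes. The 4 genes of the hypusine pathway, through which spermidine modifies the translation factor encoded by Eif5a, had 0 calls between genotypes by either tool. In female footprints 2 had an unadjusted p under 0.05 (Dohh at -0.46 ± 0.20 and Eif5a2 at 0.38 ± 0.17), as had 3367 of all 13143 genes. Eif5a itself had a log2 difference of 0.02 ± 0.17 in female footprints and -0.03 ± 0.21 in males. Peg10 and Pnma3, whose mRNAs also need a frameshift, though in the other direction, were tested beside the antizymes. The log2 difference of female footprints was 0.03 ± 0.19 for Peg10 and 0.02 ± 0.21 for Pnma3. Neither tool called them between genotypes in females or males, and edgeR gave them no unadjusted p under 0.05 there.

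Queuosine codons, all codons for tyrosine, histidine, aspartate and asparagine, made up 14.3% of the 189 codons of Oaz2, beside a median of 13.8% over 12965 genes. Sms at 18.0% and Azin1 at 17.9% had the largest shares of the 10, at percentiles 93.7 and 92.8, and Azin2 at 12.2% and Oaz1 at 12.3% the smallest. The gene with the clearest footprint difference therefore had a share at percentile 56.8.

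The codon tables could not place footprints on the antizymes. Oaz2, Azin1, Azin2, Odc1, Amd1, Sms and Sat1 had 0 codons listed in all 10 tables, although Azin1 had 338 to 1315 footprint counts per animal. Oaz1 had 1 codon with 1 footprint in each of wild-type male 1 and wild-type female 3, and Smox had 1 with 1 footprint in Qtrt1-/- male 1. Srm had between 4 and 9 codons listed per table, with 7 to 26 footprints in Qtrt1-/- animals and 9 to 26 in wild-type animals, where the count table gave 316 or more and 252 or more. The position with most listed footprints was codon 48 of Srm, a glutamine CAA counted from 0 at the start codon, listed in all 10 tables with 70 footprints in all. All 15 codons listed for Srm matched the annotated coding sequence. The stretch from codon 40 to codon 56, on chromosome 4, is shown because most of the few listed Srm footprints fell there, with codon 48 in capitals.
Srm: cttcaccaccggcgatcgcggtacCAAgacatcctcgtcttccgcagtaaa
The next most covered codons were codon 56 with 16 footprints and codon 54 with 11. Codons read by queuosine tRNAs were listed at position 47 with 2 footprints and position 49 with 6. Differences between genotypes along these genes were not tested with these tables.

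Some genes followed the regulators across animals. Over the 10 animals, the genes whose log2 footprint CPM correlated most with Oaz1 were Zfp13 (Pearson r = 0.950), Vhl (0.942) and Rfxap (0.937), and with Odc1 H2-M3 (0.889), Nit2 (0.868) and Ndufc2 (0.859). These are descriptions over 10 animals that differ in sex and genotype, taken as the highest of all genes tested, and Oaz1 and Odc1 themselves rest on few counts.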

How the data were processed

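Ribosome footprints and input RNA of mouse hippocampus were analysed in 10 animals and 20 libraries. The authors deposited whole-number counts per gene symbol, not normalized, and codon tables whose coverage column holds counts of footprints per codon, per the file headers. The submitters' processing notes name cutadapt 1.8.1, Trimmomatic 0.39, Bowtie 1.0.0 and 1.2.2 and SAMtools 0.1.19, without roles. The genome build, the counting program, its use of strand and its treatment of reads with several matches were not given in the sources used here. No molecular identifiers are mentioned, and the limit read from counts of 0 covers counting error only. SD, and the SE of footprints and of input RNA, also include differences between animals. The SE of the ratio in the main fit takes the 2 libraries of an animal as separate. With edgeR, SE is the log2 difference, without its sign, over the square root of the F statistic of the test.

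Counts were fitted with edgeR 4.0.16 in R 4.3.3 (TMM, filterByExpr on the groups, quasi-likelihood tests, Benjamini-Hochberg adjustment over all genes, called at an adjusted p under 0.05), in 14 comparisons. Footprints and input RNA were each fitted over their 10 libraries with means of the 4 groups of sex and genotype, and the footprint-to-input ratio as the interaction of assay and genotype over all 20. The 10 genes and all lists were chosen with earlier results of these data known, and this holds for every count of them. The pathway genes named are those called by edgeR in any comparison and otherwise up to 3 per list with most footprints. Named after their values were seen were genes with an unadjusted p under 0.05 between genotypes in female or male footprints, and Enoph1, called by DESeq2 alone. Levels are CPM on TMM library sizes. Between libraries of 1 group, chi-square over its degrees of freedom ran from 3.45 to 14.3. Footprint and input libraries of the same animal deviated together from their group means (correlations of 0.258 to 0.551), and the labels give both the same animal.

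Shared sequence was counted as 28-base windows of 1 coding transcript per gene in GENCODE M21 that were found on the same strand in a transcript of another gene symbol, and were compared with levels after those were seen. A count of 0 was read as allowing 3 counts. DESeq2 1.42.0, other size factors, no filter, blocks, and each animal left out were tried, and, added after seeing the data, fits without females of extreme marker levels or with 1 sex alone. The fits without females of extreme marker levels each left 1 wild-type female. Scripts were tested on simulated data. The deposited tables of codon enrichment ratios were not used.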

Additional observations from a re-analysis of the deposited data

How the results depend on the processing

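With RLE size factors every count of the 10 genes called, in all 14 comparisons, stayed as reported. Oaz2 in female footprints kept its direction in every alternative, with log2 differences between -0.91 and -0.72. It lost its call without Qtrt1-/- female 1 or 2 or wild-type female 1. The 10 genes had 1 call in female footprints, against 2 with 1 sex alone. The marker alternatives, without the 2 females lowest in choroid plexus markers or the 3 highest in striatum markers, each left 1 wild-type female. Their calls are not read for that reason. In them the log2 differences of Oaz2 in the female ratio were each -0.82. Over both sexes the count was 0 for footprints, against 1 with DESeq2 and 1 without the low-count filter, and 0 for the ratio, against 1 with DESeq2 and 1 with the block of footprint and input library of the same animal. In wild-type females against wild-type males the count for footprints was 1, against 3 without the filter. With DESeq2 the 1 call was Smox in place of Sat1. For input RNA it was 2, as with DESeq2 and without the filter. The cause was not tested.

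Leaving out 1 animal at a time, the count ran from 0 to 1 for female footprints and for the ratio in females and over both sexes, and from 0 to 2 for footprints over both sexes and for either assay in wild-type females against wild-type males. The direction reversed in one or more of these fits for differences near 0: Oaz2 input in males (-0.047 to 0.061), Oaz1 input in males (-0.078 to 0.035), and footprints in males of Azin2 (-0.053 to 0.21), Azin1 (-0.36 to 0.025) and Sat1 (-0.051 to 0.21). Without the females low in choroid plexus markers it reversed for Oaz1 in female footprints (1.27) and the female ratio (1.28) and for Azin1 in female footprints (-0.0067), and without the females high in striatum markers for Srm in female footprints (0.10).

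Over all genes, the 928 calls in female footprints became 308 with the block on replicate number and 1849 with 1 sex alone. Without single females they ran from 37 to 742. The 6 calls in the female ratio became 147 with DESeq2 and 72 with 1 sex alone. The 1 footprint call over both sexes became 537 with DESeq2 and 534 without the filter. Between the wild-type sexes there were 2171 footprint and 2016 input calls. Replicate numbers were not taken to pair the animals, since no label says what a number marks, although males of 1 number had the same age: Qtrt1-/- and wild-type animals of 1 number had correlations of deviations from -0.220 to 0.105, those of females all below 0 and those of males -0.0897 in footprints and 0.105 in input RNA. The block on that number changed no count of the 10 genes.

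No member reached the coverage that the planned tests of codon shares needed (50 footprints per mRNA in each library). The planned tests of the share downstream of the antizyme frameshift lacked data, since the codon tables listed no codon of Oaz2 and almost none of Oaz1. These tests and their alternatives were not run. Depth limits Sms, Amd1, Oaz1 and Odc1 most, whose footprint counts are the lowest of the 10 genes. With raw library totals in place of TMM sizes, all levels moved by less than 1 SD between animals.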
